A study of Mus musculus with 19 samples.

Results

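The neural cell adhesion genes Ncam1, Ncam2 and L1cam and the polysialyltransferase genes St8sia2 and St8sia4 were followed through mRNA-seq libraries of the mouse vomeronasal organ (VNO). These 5 genes, out of 35596 genes in the files, were chosen by name, as the genes of NCAM, of its close relative in the vomeronasal zones, of the adhesion molecule L1 and of both enzymes that build polysialic acid on NCAM. They were chosen with earlier results of these data known, and the study lists Ncam1 among genes raised in OMPCre cKO. A p-value adjusted over the 5 genes alone does not allow for this choice. Whole VNOs of female mice at postnatal day 21 gave 18 libraries in 6 groups of 3. In the AP-2εCre line, Cre is expressed from the locus of Tfap2e, which is active in the basal vomeronasal sensory neurons (VSNs) from an immature stage. In the OMPCre line, Cre is expressed from the locus of Omp, which is active in mature apical and basal VSNs. Each line held conditional knockouts (cKO), which carried 1 copy of Cre and 2 floxed Smad4 alleles (Cre+/-/Smad4flox/flox), heterozygous Cre controls (Cre+/-, Het) with no floxed allele named in the labels, and Smad4flox/flox controls with no Cre, which the sample labels call wild type. A library held RNA of all cells of the organ, not only of the cells with Cre. A smaller number of cells of a type and less RNA per cell therefore cannot be told apart.

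NCAM, the product of Ncam1, is a cell surface protein of the immunoglobulin superfamily that binds NCAM on neighbouring cells. Its forms share the extracellular part and differ in how they are held in the membrane, either by a transmembrane segment with a long or a shorter cytoplasmic tail or by a GPI anchor. St8sia2 and St8sia4 are Golgi enzymes that add long chains of sialic acid to NCAM, and polysialic acid lowers adhesion and is known from growing and migrating olfactory axons and neurons. Ncam2 (OCAM) has the same domain plan as Ncam1 and marks zones of the olfactory and vomeronasal epithelia. L1cam codes for an axonal adhesion protein that takes part in axon growth and fasciculation and binds ankyrins and NCAM.

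On the GRCm38 assembly, in the GENCODE vM21 annotation, Ncam1 (ENSMUSG00000039542.16) lies on the minus strand of chromosome 9 from 49502136 to 49798925. Ncam2 (ENSMUSG00000022762.18) lies on the plus strand of chromosome 16 from 81200697 to 81626828. L1cam (ENSMUSG00000031391.18) lies on the minus strand of chromosome X from 73853778 to 73896105. St8sia2 (ENSMUSG00000025789.9) lies on the minus strand of chromosome 7 from 73939119 to 74013690, and St8sia4 (ENSMUSG00000040710.10) on the minus strand of chromosome 1 from 95587682 to 95667571. The files list 30 transcripts of the 5 genes, and the following exons, read from the GENCODE vM21 transcript sequences, tell the main forms of the adhesion genes apart. In Ncam1, transcript Ncam1-205 alone holds the exon of 801 bases (chr9:49506853-49507653) that lengthens the cytoplasmic tail, and it alone holds the exon of 30 bases (chr9:49550540-49550569) known as VASE, which lies within an immunoglobulin domain. Ncam1-204 and Ncam1-202 lack both and code for the transmembrane form with the shorter tail, and Ncam1-201 ends in a different last exon (coding part chr9:49517509-49517582) of the GPI-anchored form. In Ncam2, Ncam2-202 codes for the transmembrane form, from the exon chr16:81615703-81615907 on, and Ncam2-201 for the GPI-anchored form, with a last coding part at chr16:81595207-81595310. In L1cam, an exon of 15 bases (chrX:73867022-73867036) is in L1cam-203 and not in L1cam-201, and an exon of 12 bases (chrX:73855652-73855663) is in L1cam-202 and not in L1cam-203. Both short exons are known from the neuronal form of L1. The lines below give these exons 5′ to 3′ in the sense of the gene, with the exon in capitals after 15 bases of the exon before it in lower case. Exons over 90 bases are shown by their first 60 bases, and the others are followed by 15 further bases of the transcript.
Ncam1, 30-base exon: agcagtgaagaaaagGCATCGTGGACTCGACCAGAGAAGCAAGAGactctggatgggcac
Ncam1, 801-base exon: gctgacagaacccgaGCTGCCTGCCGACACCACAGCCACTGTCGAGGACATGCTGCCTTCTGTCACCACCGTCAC
Ncam1, GPI-type end: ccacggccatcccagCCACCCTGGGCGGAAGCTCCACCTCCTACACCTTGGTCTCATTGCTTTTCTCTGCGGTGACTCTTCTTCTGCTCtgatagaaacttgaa
Ncam2, GPI-type end: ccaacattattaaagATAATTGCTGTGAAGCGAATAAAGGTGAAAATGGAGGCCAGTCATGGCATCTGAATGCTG
Ncam2, transmembrane type: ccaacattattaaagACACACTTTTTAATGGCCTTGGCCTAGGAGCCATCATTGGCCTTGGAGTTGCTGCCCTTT
L1cam, 15-base exon: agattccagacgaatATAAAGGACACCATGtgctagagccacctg
L1cam, 12-base exon: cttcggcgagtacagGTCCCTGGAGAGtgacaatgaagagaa

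Total estimated counts per library were 43385516 to 134042284, and every library held at least 264 counts of each of the 5 genes. Smad4, counted over its whole length, was 54.4 to 62.5 CPM (counts scaled to a common library size) in OMPCre cKO and 64.8 to 83.9 CPM in the OMPCre-line controls, whereas in the AP-2εCre line the ranges of cKO (33.8 to 66.5 CPM) and controls (39.6 to 81.0 CPM) overlapped, so that Smad4 did not separate the labels of that line. The libraries carry names of 2 kinds, a letter with a number or a prefix for the line, and each line has 1 library with a line-prefixed name in each genotype. The labels do not say what this split stands for, and results on which it bears are also given within each kind of name. Both knocked-in loci were lower where Cre was carried, with means of 15.4, 7.50 and 11.2 CPM of Tfap2e in AP-2εCre-line Smad4flox/flox, Het and cKO libraries and of 397, 237 and 259 CPM of Omp in those of the OMPCre line. Gnai2, a G protein of apical VSNs, had group means of 358 to 444 CPM. The cKO groups of both lines lay above all their controls in the summed CPM of 4 apical VSN markers (Gnai2, Meis2, Nrp2, Pde4a), at 1038 to 1073 CPM against 799.6 to 956 CPM in the AP-2εCre line and at 987 to 1040.0 CPM against 855 to 954 CPM in the OMPCre line. Gene by gene, only Meis2 did so in the OMPCre line (190 to 201 CPM), while Gnai2, Nrp2 and Pde4a overlapped. In the AP-2εCre line Meis2 overlapped, and Gnai2, Nrp2 and Pde4a did not. Of all single genes tested, 2.21% in the AP-2εCre line and 1.41% in the OMPCre line had all cKO libraries above all controls. Summed markers of basal VSNs, immature neurons, mature VSNs, glia, sustentacular cells, endothelium and muscle overlapped between cKO and controls in both lines, and none of the markers was at 0 in all libraries. Single libraries stood apart in some of these sums. OMPCre-line Smad4flox/flox replicate 3 had 150.1 CPM of muscle markers, against 2.08 to 7.48 CPM in the 17 others. AP-2εCre cKO replicate 3 had 1449 CPM of endothelial markers (159 to 905 CPM in the others), and AP-2εCre Het replicate 1 had 2446 CPM of sustentacular markers (360 to 1263 CPM in the others). Single genes made up most of both sums, with Pecam1 at up to 1367 CPM in AP-2εCre cKO and Cyp2a5 at up to 1977 CPM in AP-2εCre Het. The endothelial markers Cdh5, Kdr and Tek had means of 37.6, 30.0 and 15.9 CPM in AP-2εCre cKO. Their means were 37.2, 27.4 and 16.8 CPM in Smad4flox/flox libraries of that line.

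The first question was how strongly each member is expressed when Smad4 is intact. Levels of different genes were compared per length, as TPM (the deposited length-scaled abundance of a transcript, summed over the transcripts of a gene), in the 6 Smad4flox/flox libraries of both lines. Ncam1 was highest at 46.3 ± 7.7 TPM (SD, n = 6), followed by L1cam at 24.4 ± 8.9 TPM, Ncam2 at 4.16 ± 1.12 TPM, St8sia4 at 1.59 ± 0.46 TPM and St8sia2 at 1.41 ± 0.34 TPM. The adhesion genes thus stood above both enzyme genes in each of these libraries. Ncam1 exceeded L1cam in 6 of 6 libraries by a mean log2 ratio of 0.98 ± 0.34, L1cam exceeded Ncam2 by 2.49 ± 0.18 and Ncam2 exceeded St8sia4 by 1.34 ± 0.22, likewise in 6 of 6 libraries. Each of these 3 steps had p = 0.031 in a two-sided exact sign-flip permutation test, the smallest p that 6 libraries allow, and an adjusted p of 0.042 over the 4 neighbouring pairs. The level of L1cam depended on which transcripts were summed. Short retained-intron and partial transcripts held most of its TPM, and the 2 transcripts with at least 5% of its counts held 39.1% (35.2% to 44.4%), against 91.5% for the 3 such transcripts of Ncam1. From such transcripts alone, an alternative chosen after seeing the data, L1cam came to 9.30 ± 2.57 TPM, Ncam1 to 42.3 ± 6.9 TPM and Ncam2 to 4.06 ± 1.03 TPM (SD, n = 6). The order stayed the same, with a mean log2 ratio of 2.20 for Ncam1 over L1cam and of 1.17 for L1cam over Ncam2, each in 6 of 6 libraries. In these 6 libraries, no difference between St8sia4 and St8sia2 beyond their spread was detected (mean log2 ratio 0.15 ± 0.38, higher for St8sia4 in 4 of 6 libraries, p = 0.47, adjusted p = 0.47, same exact permutation test). Over all 18 libraries of the 3 genotypes, St8sia4 was higher in 13 of 18 (mean log2 ratio 0.28 ± 0.43; p = 0.011, adjusted p = 0.011, sign-flip permutation test).

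**Figure D1:**
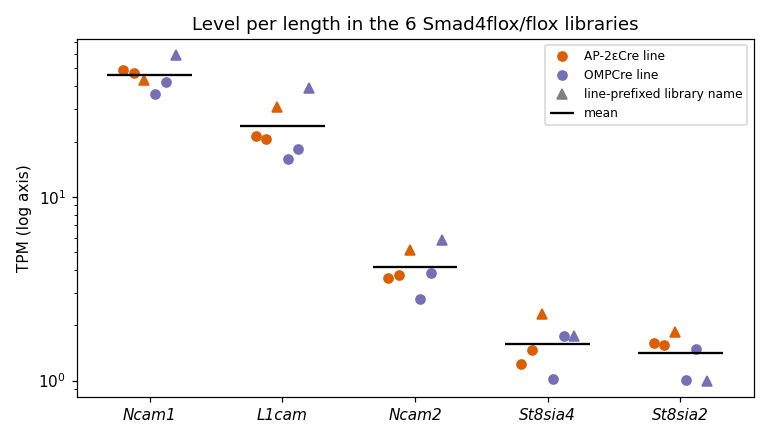
Level per length of the 5 genes in TPM (log axis), 1 point per Smad4flox/flox library, coloured by line, with triangles for line-prefixed library names and a bar at the mean. Ncam1 is highest in every library, L1cam and Ncam2 follow, and the points of St8sia4 and St8sia2 overlap between 1.02 and 1.83 TPM.

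Ncam1 was higher in the Smad4 cKO of the OMPCre line. Expression was 368, 394 and 375 CPM in the 3 OMPCre cKO libraries, 310, 303 and 271 CPM in the 3 OMPCre Het libraries and 315, 298 and 297 CPM in the 3 Smad4flox/flox libraries of this line. All 3 cKO libraries lay above all 6 controls, with group means of 379 ± 13.4 CPM (SD, n = 3) and 299 ± 15.4 CPM (n = 6). All cKO libraries above all controls were seen for 1.41% of 18623 genes tested in this line, and separate groups in either direction for 2.35%. The cKO libraries together had a log2 fold change of 0.34 (SE 0.07; unadjusted p = 0.00056, adjusted p = 0.53; edgeR's quasi-likelihood test, adjusted by Benjamini and Hochberg's method over the genes tested). EdgeR called no gene of this comparison at an adjusted p of 0.05 (background 0.0%), although 735 genes (3.95%) had an unadjusted p under 0.05. DESeq2 with its own size factors called 46 of 25727 genes (0.179%), Ncam1 among them, at a log2 fold change of 0.34 (adjusted p = 0.000931). The exact permutation test over the 84 splits of 3 against 6 libraries gave p = 0.012 for Ncam1, the smallest p it can give, and an adjusted p of 0.12 over the 10 tests of the 5 genes in both lines. The call for Ncam1 in this line therefore rests on the tool, while the size of the difference did not, ranging from 0.32 to 0.37 over 10 other settings and from 0.31 to 0.36 with 1 library left out. Without Smad4flox/flox replicate 3, the control with muscle markers, the log2 fold change of Ncam1 was 0.34.

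In the AP-2εCre line the mean difference of Ncam1 in CPM was of the same size with a wider spread. Expression was 280, 422 and 470 CPM in the 3 AP-2εCre cKO libraries, 261, 367 and 259 CPM in the Het libraries and 388, 344 and 237 CPM in the Smad4flox/flox libraries. The lowest cKO library lay below 3 of the 6 controls, so the groups overlapped. The log2 fold change was 0.34 (SE 0.20; unadjusted p = 0.12, adjusted p = 0.61, edgeR), and the permutation test gave p = 0.18 (adjusted p = 0.45 over the 10 tests). The 3 libraries with line-prefixed names had the lowest Ncam1 of their groups in this line (280 CPM in cKO, 259 CPM in Het and 237 CPM in Smad4flox/flox). Among the letter-and-number names alone, both cKO libraries (422 and 470 CPM) lay above all 4 controls (261 to 388 CPM), and among the line-prefixed names the 1 cKO library lay above both controls. With the kind of name as a covariate, the SE fell to 0.12 at a log2 fold change of 0.32 (unadjusted p = 0.028, adjusted p = 0.38, edgeR). In the OMPCre line the same within-name order held, with cKO at 368 and 394 CPM against 298 to 315 CPM and at 375 CPM against 271 and 297 CPM. Leaving out replicate 3 of the AP-2εCre cKO libraries lowered the log2 fold change of this line to 0.19, and leaving out replicate 1 raised it to 0.53, so single libraries set its size there.

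Over both lines together, the mean cKO effect on Ncam1 was a log2 fold change of 0.34 (SE 0.11; unadjusted p = 0.0070, adjusted p = 0.33, edgeR), and the permutation test within lines gave p = 0.013, or 0.064 adjusted over the 5 genes. Between the lines, the cKO effects on Ncam1 differed by 0.00 on the log2 scale (SE 0.22, AP-2εCre minus OMPCre), an interval too wide to show that the lines act alike. By this interaction, edgeR called 0 of 19465 genes (0.0%; 956, or 4.91%, at an unadjusted p under 0.05), and DESeq2 called 20, none of them a member. The summed apical VSN markers given above lay higher in the cKO of both lines, as the mean of Ncam1 did. Of 7 immature neuron markers, 7 were above 0 in AP-2εCre cKO (median 0.31), 4 in OMPCre cKO (median 0.07) and 7 in the mean effect (median 0.24). Of 4 basal VSN markers, 1 was above 0 in AP-2εCre cKO (median -0.04), 3 in OMPCre cKO (median 0.16) and 2 in the mean effect (median 0.06). Of 4 sustentacular markers, 0 were above 0 in either line (medians -0.59 and -0.17). The part of these cell types in the Ncam1 values was not tested.

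The scale of the values bore on these groups. In TPM, Ncam1 was 62.7, 65.9 and 81.9 in the AP-2εCre cKO libraries against 34.9 to 57.1 in their 6 controls, which gave no overlap (difference 0.62, p = 0.012, exact permutation test on log2(TPM + 1), the smallest it can give). In TPM, however, 8.85% of genes had all cKO libraries of this line above all controls (9.35% were separate in either direction), and the median difference over its 18495 tested genes was 0.21 on the log2(TPM + 1) scale, against 0.00 on the log2(CPM + 1) scale. In the OMPCre line TPM was 49.4, 53.7 and 73.1 in cKO against 36.5 to 59.1 in controls, so that the groups overlapped (difference 0.30, p = 0.17, same exact permutation test), and the median difference over all genes was -0.03. The mean of cKO was above that of controls on both scales in both lines. Whether CPM or TPM is read thus decided which line had separate groups. Ncam2 in the AP-2εCre line also differed more in TPM, with 8.28, 5.64 and 6.40 in cKO against 3.601 to 5.85 in controls, which overlapped (difference 0.50 in TPM and 0.23 in CPM, p = 0.036 and 0.11, exact permutation tests).

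**Figure D2:**
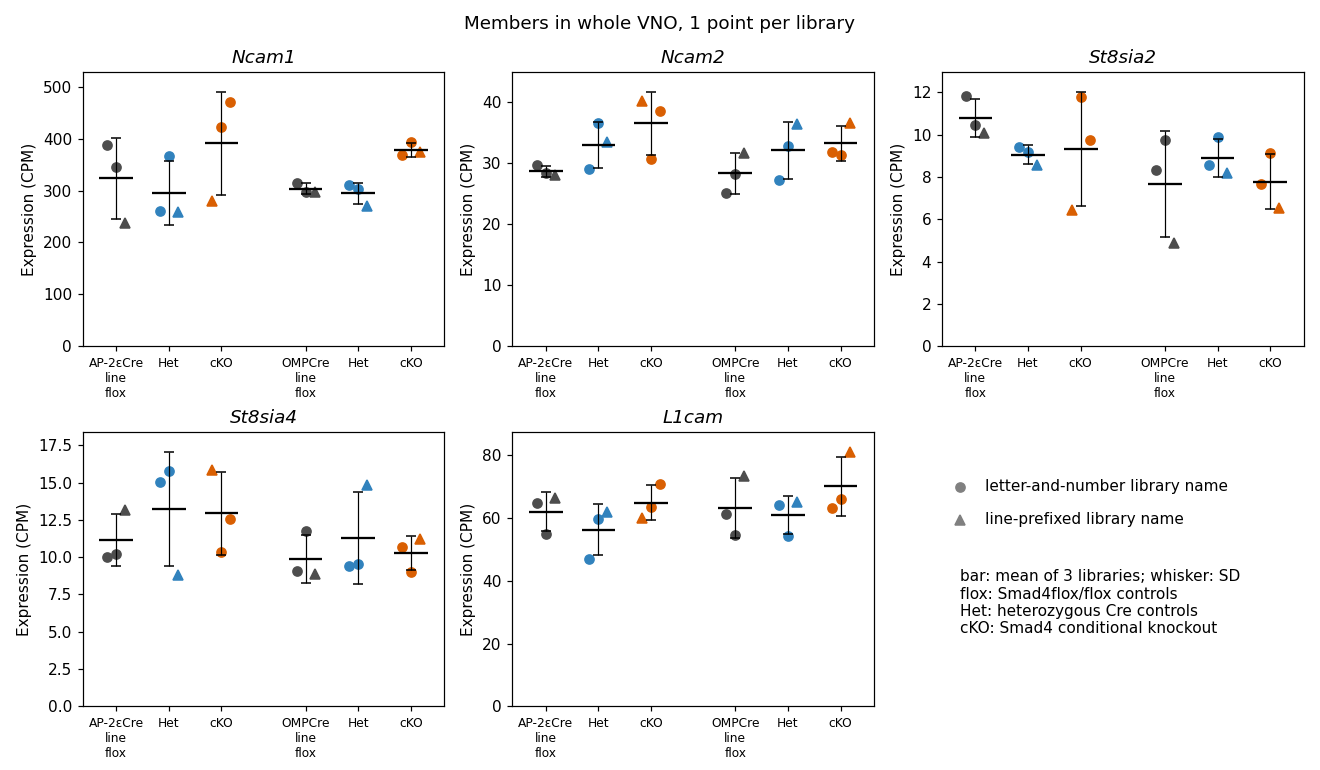
Expression (CPM) of the 5 genes in the 6 groups, 1 point per library, with triangles for line-prefixed names, a bar at the mean and whiskers of 1 SD over 3 libraries. Ncam1 in OMPCre cKO (368 to 394 CPM) stands clear of the controls of that line (271 to 315 CPM), while the other genes overlap between cKO and controls.

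Ncam2 had a higher mean in cKO than in the pooled controls of either line. AP-2εCre cKO libraries had 40.2, 30.6 and 38.6 CPM, against 29.0, 36.5 and 33.5 CPM in Het and 29.7, 28.3 and 28.0 CPM in Smad4flox/flox libraries. OMPCre cKO libraries had 31.8, 31.3 and 36.5 CPM, against 27.1, 32.7 and 36.3 CPM in Het and 25.1, 28.1 and 31.7 CPM in Smad4flox/flox libraries. The groups overlapped in both lines. Log2 fold changes were 0.24 (SE 0.12; adjusted p = 0.51) for AP-2εCre cKO and 0.14 (SE 0.12; adjusted p = 1.00) for OMPCre cKO by edgeR, and 0.19 (SE 0.08; unadjusted p = 0.039, adjusted p = 0.51) for the mean effect. The heterozygotes, which carry Cre and no Smad4 deletion, also had higher means than the Smad4flox/flox controls, by 0.21 (SE 0.13) in the AP-2εCre line and 0.17 (SE 0.13) in the OMPCre line (adjusted p = 0.98 and 0.91, edgeR). In the AP-2εCre line the cKO difference was 0.34 against Smad4flox/flox controls alone and 0.15 against Het controls alone, and in the OMPCre line 0.23 and 0.05. In OMPCre cKO the difference of Ncam2 was 0.06 without replicate 3 of the cKO libraries and 0.09 without replicate 1 of the Smad4flox/flox libraries. The Het difference in the AP-2εCre line was 0.12 without Het replicate 2, and in the OMPCre line it was 0.08 without Het replicate 3, 0.10 without Smad4flox/flox replicate 1, 0.28 without Het replicate 1 and 0.27 without Smad4flox/flox replicate 3, so that single libraries set its size. Among letter-and-number names the log2 ratio of the means of Ncam2 was 0.16 in both lines, and among line-prefixed names 0.39 in the AP-2εCre and 0.10 in the OMPCre line.

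L1cam was 59.98, 63.7 and 71.0 CPM in AP-2εCre cKO against 47.1 to 66.4 CPM in the controls of that line. In the OMPCre line it was 63.2, 66.2 and 81.0 CPM in cKO against 54.2 to 73.5 CPM in controls. The groups overlapped in both lines, and the means of cKO were higher by 0.14 (SE 0.11; adjusted p = 0.75) and 0.17 (SE 0.12; adjusted p = 1.00) on the log2 scale by edgeR. For the mean effect the difference was 0.15 (SE 0.08; unadjusted p = 0.080, adjusted p = 0.61), and it ranged from 0.095 to 0.19 with 1 library left out. In the AP-2εCre line the value fell to 0.07 without replicate 3 of the cKO libraries and to 0.08 without replicate 1 of the Het libraries, and in the OMPCre line to 0.06 without replicate 3 of the cKO libraries. In the OMPCre line the library with a line-prefixed name had the highest L1cam in each of the 3 groups. Among these names the AP-2εCre cKO library (59.98 CPM) lay below both controls (62.1 and 66.4 CPM) and the OMPCre cKO library (81.0 CPM) above both (65.0 and 73.5 CPM). Among letter-and-number names L1cam overlapped in both lines, with log2 ratios of the means of 0.25 in the AP-2εCre line and 0.14 in the OMPCre line.

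St8sia2 and St8sia4, the polysialyltransferase genes, showed no difference beyond the spread of the libraries in either line. St8sia2 was 6.45, 11.8 and 9.76 CPM in AP-2εCre cKO and 8.56 to 11.8 CPM in the 6 controls, and 7.67, 9.13 and 6.55 CPM in OMPCre cKO and 4.88 to 9.90 CPM in the 6 controls. The kinds of library name differed in sign for both enzymes in the AP-2εCre line. Among line-prefixed names, with 1 cKO library, St8sia2 was 6.45 CPM against 8.56 and 10.1 CPM in controls (log2 ratio of means -0.53), and among letter-and-number names cKO and controls overlapped (0.07). The lowest AP-2εCre-line value of St8sia2 was in the same cKO library that had the lowest Ncam1 of its group. St8sia4 was 15.9, 10.4 and 12.6 CPM in AP-2εCre cKO and 8.83 to 15.8 CPM in controls, and 10.7, 9.0 and 11.2 CPM in OMPCre cKO and 8.84 to 14.8 CPM in controls. The line-prefixed AP-2εCre cKO library (15.9 CPM of St8sia4) lay above both controls with such names (8.83 and 13.1 CPM; log2 ratio of means 0.53), whereas the letter-and-number names overlapped (-0.15). Both enzymes overlapped within each kind of name in the OMPCre line. The mean cKO effects were -0.09 (SE 0.14; adjusted p = 0.92) for St8sia2 and 0.02 (SE 0.14; adjusted p = 0.99) for St8sia4 by edgeR. These enzymes were counted with 264 to 1649 and 384 to 1453 reads per library, and the SE given limits what these libraries could show.

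Of the 5 genes, none passed an adjusted p of 0.05 by edgeR in AP-2εCre cKO against controls, where 0.0378% of 18495 genes did, or in the mean cKO effect, where 0.0925% of 19465 did. At an unadjusted p under 0.05, 2 of 5 members (Ncam1 and Ncam2) passed in the mean effect, beside 9.37% of all genes, and 0 of 5 in the AP-2εCre line, beside 10.2%. Between heterozygotes and Smad4flox/flox controls, 0.0487% of genes in the AP-2εCre line and 0.0752% in the OMPCre line passed the adjusted threshold (5.47% and 5.84% the unadjusted one), and no member did. There Ncam1 differed by -0.13 (SE 0.24) and -0.05 (SE 0.08), L1cam by -0.14 (SE 0.13) and -0.06 (SE 0.14), St8sia2 by -0.25 (SE 0.20) and 0.20 (SE 0.25), and St8sia4 by 0.25 (SE 0.24) and 0.18 (SE 0.20), all with an adjusted p of at least 0.959 by edgeR. With 1 library left out, the values of the AP-2εCre line ranged from -0.22 to -0.03 for L1cam and from 0.10 to 0.47 for St8sia4. The mean of Ncam1 in Het was thus below that in Smad4flox/flox libraries in both lines, within the spread, and the sign of this difference changed when single libraries were left out.

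**Figure D3:**
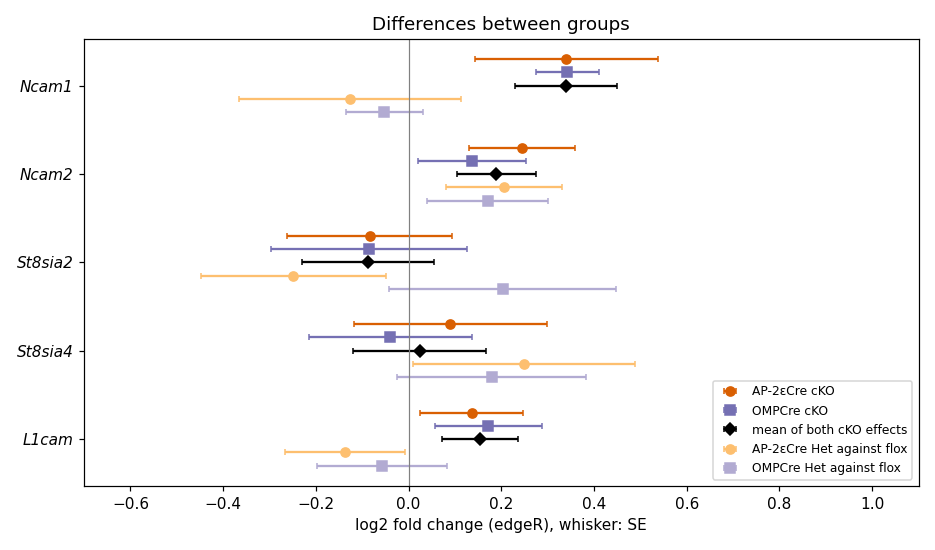
Log2 fold changes by edgeR with whiskers of 1 SE, for cKO against pooled controls in each line, their mean, and Het against Smad4flox/flox controls. Ncam1 sits at 0.34 in all 3 cKO contrasts and below 0 in both Het contrasts, whereas Ncam2 is above 0 in all 5 (the sign of Ncam1 in Het changed with single libraries left out).

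The transcripts of Ncam1 were examined next, since the form with the long cytoplasmic tail and the form with the shorter tail differ in their partners inside the cell. Salmon assigns a read that fits several transcripts by an estimate, and of the possible reads of 75 bases only 0.251% of those of Ncam1-204 occur in no other Ncam1 transcript, against 16.4% of those of Ncam1-205, 2.52% of Ncam1-202 and 12.1% of Ncam1-201. Shares of Ncam1-204 are therefore mostly estimates from shared sequence. In the annotation Ncam1-205 also lacks its 5′ end.

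Over the 18 libraries Ncam1-204 held 53.5% of the estimated Ncam1 counts on average (46.1% to 63.1%), Ncam1-205 held 36.7% (29.2% to 42.3%), Ncam1-202 held 5.92% (2.33% to 10.3%) and Ncam1-201 held 2.99% (1.54% to 4.79%). By estimated counts, the form with the 801-base exon was thus second in each library, and the GPI form was below 5% in each library. Counts are not scaled by length, and Ncam1-201 has 2567 bases against 6050 in Ncam1-204 and 6564 in Ncam1-205. These shares therefore understate the GPI form as a share of molecules. In the AP-2εCre line the share of Ncam1-204 was 49.45%, 49.2% and 49.3% in cKO, 63.1%, 54.8% and 51.9% in Het and 58.2%, 58.5% and 52.0% in Smad4flox/flox libraries. All 3 cKO values were below all 6 controls (49.3% ± 0.10 against 56.4% ± 4.4, SD; p = 0.036, exact permutation test; adjusted p = 0.64 over 18 tests). Among transcripts with at least 5% of the counts of their gene, 0.867% lay below all controls in this way and 1.92% were separate in either direction. The order held within each kind of library name, with cKO at 49.2% and 49.3% against 54.8% to 63.1% among letter-and-number names and at 49.45% against 51.9% and 52.0% among line-prefixed names. Leaving out replicate 1 or 2 of the Smad4flox/flox libraries or replicate 2 or 3 of the cKO libraries left 0 of the 18 share tests with p under 0.05. The share of Ncam1-205 in the same line was 39.8% ± 3.49 in cKO and 35.03% ± 3.34 in controls (p = 0.095, adjusted p = 0.86, same exact permutation test), with overlap. In the OMPCre line the shares were alike in mean, 53.5% ± 6.7 against 52.7% ± 3.4 for Ncam1-204 and 37.3% ± 2.8 against 36.5% ± 1.8 for Ncam1-205 (adjusted p = 0.98 and 0.97, exact permutation tests). With shares taken from TPM in place of estimated counts, no transcript of the 5 genes had p under 0.05. The share of Ncam1-204 in AP-2εCre cKO was then 44.7% against 52.3% in controls, with overlap (p = 0.060, exact permutation test). Its difference of -7.57 percentage points was close to the -7.09 from counts.

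As levels, Ncam1-205 was 140, 134 and 149 CPM in OMPCre cKO against 104 to 113 CPM in the 6 controls, with no overlap. All cKO libraries above all controls were seen for 0.943% of the transcripts tested there, and separate groups in either direction for 1.52%. Its log2 fold change was 0.37 (SE 0.06; unadjusted p = 0.00032, adjusted p = 0.66 over 59367 transcripts by edgeR, of which 0.00337% were called and 2.53% had an unadjusted p under 0.05), and DESeq2 called it at an adjusted p of 5.56e-10 among 827 calls in 90544 transcripts (0.913%). Ncam1-204 in the same line differed by 0.36 (SE 0.13; unadjusted p = 0.021, adjusted p = 1.00, edgeR). In the AP-2εCre line Ncam1-205 was 100, 179 and 194 CPM in cKO and 76.1 to 141 CPM in controls, a difference of 0.53 on the log2 scale (SE 0.26; unadjusted p = 0.070), Ncam1-202 differed by 0.73 (SE 0.26; unadjusted p = 0.021) and Ncam1-204 by 0.14 (SE 0.23; unadjusted p = 0.56), all at an adjusted p of 1.00 by edgeR. The value of Ncam1-205 was 0.35 without replicate 3 and 0.76 without replicate 1 of the cKO libraries. There edgeR called 0 of 58883 transcripts (0.0%), with 2850 (4.84%) at an unadjusted p under 0.05, and DESeq2 called 1047, none of them one of the 10 member transcripts tested.

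**Figure D4:**
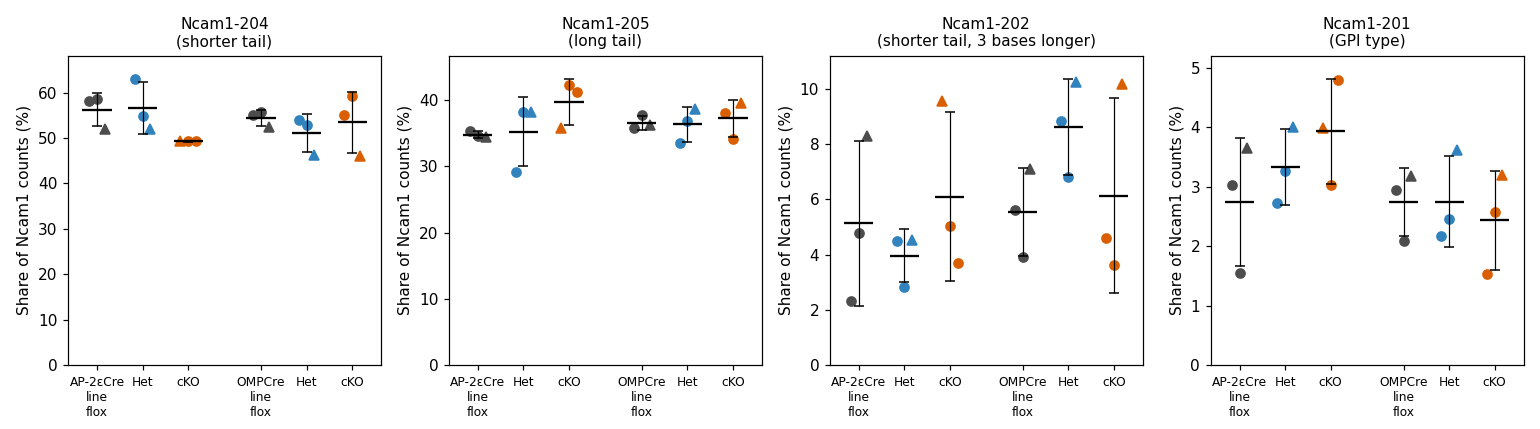
Share of the estimated Ncam1 counts (%) held by 4 transcripts in the 6 groups, 1 point per library, with triangles for line-prefixed names, a bar at the mean and whiskers of 1 SD. Ncam1-204 lies at 49.2% to 49.45% in AP-2εCre cKO, below the controls of its line, and the other panels overlap between cKO and controls.

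Among Ncam2 counts, the transmembrane form Ncam2-202 held 84.6% on average (76.0% to 90.6%) and the GPI form Ncam2-201 held 14.9% (9.38% to 23.3%). Of the possible reads of these transcripts, 63.2% and 53.9% are found in no other Ncam2 transcript, so these forms are better told apart than those of Ncam1. The GPI form held 15.9% ± 2.9 in AP-2εCre cKO and 14.5% ± 5.0 in controls, and 15.2% ± 1.5 in OMPCre cKO and 14.7% ± 3.2 in controls (adjusted p = 0.97 and 0.98, exact permutation tests). Compared with Ncam1, in which the GPI form held 2.99% of counts, Ncam2 had the larger GPI share of counts in each of the 18 libraries. The lengths differ less in Ncam2 (4893 bases in Ncam2-201 and 6106 in Ncam2-202) than in Ncam1, and the shares were not scaled by length.

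L1cam-203, with the 15-base exon and without the 12-base exon, held 77.3% of L1cam counts on average (68.1% to 87.8%), and L1cam-201, with neither exon, held 8.75% (0.0% to 17.3%). L1cam-202, with both short exons, was under 1 count in 13 of 18 libraries and reached 14.8% in replicate 2 of the OMPCre cKO. Of the possible reads of these 3 transcripts, 3.50%, 1.83% and 0.774% occur in no other L1cam transcript. L1cam-203 was 74.7% ± 4.1 in AP-2εCre cKO and 80.0% ± 6.9 in controls, and 72.5% ± 3.8 in OMPCre cKO and 78.3% ± 5.9 in controls (adjusted p = 0.88 for both, exact permutation tests). Of the enzymes, St8sia2-201 held the St8sia2 counts of each library, and St8sia4-201 held 92.0% of St8sia4 counts (80.5% to 97.7%), the rest being nearly all St8sia4-204 (7.91%).

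Genes of the same pathways were then read beside the members, from lists of 3 to 11 genes. No gene of these lists had an adjusted p under 0.05 in any of the 6 comparisons by edgeR, and the shares of genes called in each are those given above. The lists are described by the mean cKO effect over both lines, where the median log2 fold change of all genes was -0.01. Of the 6 genes that make, activate and carry sialic acid, the substrate of St8sia2 and St8sia4, none had a mean effect above 0, with a median of -0.13. Line by line, 0 of 6 were above 0 in AP-2εCre cKO and 1 of 6 in OMPCre cKO, the CMP-sialic acid transporter Slc35a1 (0.15, SE 0.15; named after its value was seen). The 4 sustentacular cell markers had the same sign, with 0 of 4 above 0 in either line and a median mean effect of -0.38, although their summed CPM overlapped (572 to 806 in AP-2εCre cKO against 701 to 2446 in controls, and 522 to 1054 against 360 to 1187 in the OMPCre line). Their part in the values of this list was not tested. Gne, the enzyme that starts sialic acid synthesis, was 66.7, 71.5 and 77.2 CPM (lowest, median and highest) in AP-2εCre cKO against 72.7 to 109.0 CPM (median 87.0 CPM) in controls. In OMPCre cKO it was 83.0 to 89.4 CPM against 70.3 to 109.1 CPM (median 90.3 CPM). Its groups overlapped in both lines, with a mean effect of -0.18 (SE 0.09; adjusted p = 0.58, edgeR). Slc17a5, the lysosomal sialic acid exporter, differed by -0.14 (SE 0.07; adjusted p = 0.58). None of the 6 had an unadjusted p under 0.05 in the mean effect. In AP-2εCre cKO alone, 2 of 6 did, beside 10.2% of all genes. Slc17a5 was 30.3 to 32.9 CPM there against 34.8 to 40.6 CPM in controls, without overlap, as 2.85% of all genes were lower in that line and 5.06% separate in either direction (-0.24, SE 0.07; unadjusted p = 0.0076, adjusted p = 0.33, edgeR), and Slc35a1 differed by -0.26 (SE 0.12; unadjusted p = 0.048, adjusted p = 0.48).

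The other sialyltransferases of the same family, St8sia1, St8sia3, St8sia5 and St8sia6, had a median of -0.13 with 1 of 4 above 0. St8sia1, which makes gangliosides, was 0.99 to 2.36 CPM in OMPCre cKO and 1.46 to 3.13 CPM in controls (mean effect -0.55, SE 0.23; unadjusted p = 0.032, adjusted p = 0.50, edgeR). St8sia3 stayed below 0.39 CPM in each library, and its mean effect of 0.86 had an SE of 0.75. Of 4 sialidase genes, 3 were tested, with a median of -0.03. The lines differed in sign, with 0 of 3 above 0 in AP-2εCre cKO (median -0.23) and 3 of 3 in OMPCre cKO (median 0.03), and none of the 3 had an unadjusted p under 0.05 in either line or in the difference between lines. In the mean effect Neu3, a plasma membrane sialidase, differed by -0.20 (SE 0.18; -0.43 and 0.03 in AP-2εCre and OMPCre cKO) and Neu2 by -0.03 (SE 0.15; -0.23 and 0.17), both at an adjusted p of at least 0.79, and Neu4 was at 0 to 4 counts and was not tested.

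In the 11 relatives of NCAM and L1 in the immunoglobulin superfamily, 8 had a mean effect above 0 (7 of 10 tested in AP-2εCre cKO and 6 of 11 in OMPCre cKO) and the median was 0.10. Nrcam, a close relative of L1cam, was 16.7 to 21.8 CPM in AP-2εCre cKO against 9.45 to 15.5 CPM in controls, without overlap (2.21% of genes lay higher in this way in that line, and 5.06% were separate in either direction), and 13.99 to 15.4 CPM in OMPCre cKO against 11.7 to 14.7 CPM in controls. Its mean effect was 0.31 (SE 0.10; unadjusted p = 0.0057, adjusted p = 0.32, edgeR), close to that of Ncam1. Alcam, an adhesion gene of growing axons, differed in the other direction by -0.27 (SE 0.10; unadjusted p = 0.012, adjusted p = 0.39), with 54.5 to 63.7 CPM in AP-2εCre cKO against 67.9 to 100.2 CPM in controls and overlap in the OMPCre line. In the AP-2εCre line, 2.85% of genes had all cKO libraries below all controls. The third gene of this list with an unadjusted p under 0.05, Mcam, named after its value was seen, differed by 0.28 (SE 0.11; adjusted p = 0.44). The 3 genes make up 3 of 11, beside 9.37% of all genes.

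Of 9 partners through which NCAM signals, 8 had a mean effect above 0 (8 in AP-2εCre cKO and 6 in OMPCre cKO), with a median of 0.11. Markers of immature neurons and of apical sensory neurons had the same sign in the mean effect, with 7 of 7 above 0 (median 0.24) and 4 of 4 above 0 (median 0.21). Gap43, a growth cone protein, is in both the partner list and the immature neuron list. Fgfr1, the growth factor receptor that NCAM binds, was 172 to 208 CPM in AP-2εCre cKO and 128 to 168 CPM in controls, without overlap, and 137 to 190 CPM in OMPCre cKO and 128 to 187 CPM in controls (mean effect 0.23, SE 0.09; unadjusted p = 0.016, adjusted p = 0.43, edgeR). In the AP-2εCre line, 2.21% of genes had all cKO libraries above all controls, and 5.06% were separate in either direction. Prnp, the prion protein, differed by 0.15 (SE 0.06; unadjusted p = 0.021, adjusted p = 0.45), and in the OMPCre line its 3 cKO libraries (236 to 256 CPM) reached or passed the highest control (236 CPM). In that line, 1.41% of genes had all cKO libraries above all controls, and 2.35% were separate in either direction. Of the 5 partners of L1, all 5 were above 0 in AP-2εCre cKO and 3 in OMPCre cKO, and the median mean effect was 0.10. In AP-2εCre cKO, 7 of 7 immature neuron markers (median 0.31), 4 of 4 apical markers (median 0.28) and 0 of 4 sustentacular markers (median -0.59) were above 0, and in OMPCre cKO 4 of 7 (median 0.07), 4 of 4 (median 0.19) and 0 of 4 (median -0.17). The part of these cell types in the values of both partner lists was not tested. The lines went opposite ways for the ankyrin gene Ank1, named after its values were seen, which was 18.2 to 22.7 CPM in AP-2εCre cKO against 4.87 to 18.5 CPM in controls (1.05, SE 0.32; unadjusted p = 0.0081, adjusted p = 0.33, edgeR) and 6.66 to 11.6 CPM in OMPCre cKO against 13.2 to 23.6 CPM in controls (-0.69, SE 0.23; unadjusted p = 0.015, adjusted p = 1.00). Its groups were separate in the OMPCre line, where 2.35% of genes were separate in either direction. The difference between its effects was 1.73 (SE 0.43; unadjusted p = 0.00094, adjusted p = 0.98). Ank2, an ankyrin that links L1 to the spectrin skeleton, differed by 0.30 (SE 0.10; unadjusted p = 0.010, adjusted p = 0.37), and Ank3, the ankyrin of the axon initial segment, by 0.10 (SE 0.07; adjusted p = 0.69). Of 3 proteases that shed adhesion molecules, Bace1 differed by 0.22 (SE 0.08; unadjusted p = 0.019, adjusted p = 0.45) and Adam17 by -0.04 (SE 0.06; adjusted p = 0.92).

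**Figure D5:**
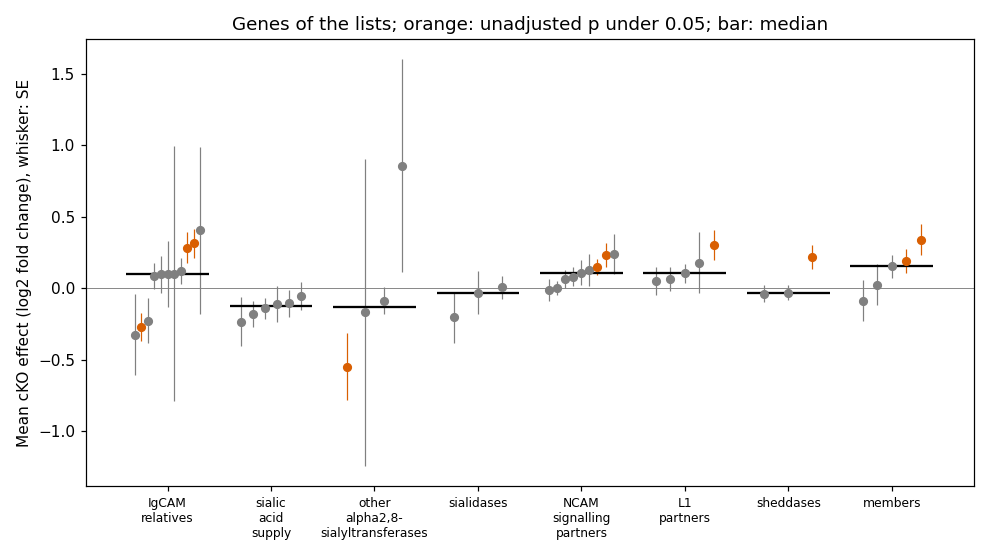
Mean cKO effect over both lines (log2 fold change by edgeR) of each tested gene of the pathway lists and of the 5 members, with whiskers of 1 SE, a bar at the median of the list, and orange for an unadjusted p under 0.05. The 6 sialic acid supply genes all lie below 0 in this mean (5 of 6 in OMPCre cKO alone), while 8 of 9 NCAM signalling partners and 5 of 5 L1 partners lie above 0 in this mean (6 of 9 and 3 of 5 in OMPCre cKO alone).

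The genes whose level followed each member most closely over the 18 libraries were named by Pearson's r of log2(CPM + 1) among 19465 genes. For Ncam1 these were Ubap2 (r = 0.86), Cyfip2 (r = 0.85) and Sv2c (r = 0.85). Ncam2 was followed by Klhl5 (r = 0.85), Myh10 (r = 0.85) and Gng2 (r = 0.85), and L1cam by Kif1a (r = 0.92), Lrsam1 (r = 0.91) and Mtcl1 (r = 0.91). For St8sia2 they were Fbxo16 (r = 0.85), Ccr4 (r = 0.83) and Slc18b1 (r = 0.82), and for St8sia4 Zfp518a (r = 0.93), Ptprc (r = 0.90) and Zfp534 (r = 0.88). By rank, Fbxo16 followed St8sia2 less closely (Spearman's rho 0.53). Ccr4 and Zfp534 had low means of 1.51 and 0.37 CPM. The highest of many values is high by selection, the libraries share lines and kinds of name, and no test was made. Among the members themselves r ranged from -0.43 (St8sia2 with L1cam) to 0.48 (Ncam2 with St8sia4), and it was 0.25 between Ncam1 and St8sia2 and -0.20 between Ncam1 and St8sia4.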

How the data were processed

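The authors made stranded polyA+ libraries, sequenced single reads of 75 bases and quantified them with Salmon 0.14.0. Per the labels they used DESeq2 1.22.2 for their own comparisons. The deposited estimated count per transcript is not normalized, and the deposited TPM is scaled to the same sum in each library. The 116248 transcripts were matched to GENCODE vM21 (176 without a gene, at most 0.0324% of counts, were left out), and lengths in the files are those of whole transcripts. Counts were summed per gene and rounded.

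Features were tested in edgeR 4.0.16 (R 4.3.3) by its quasi-likelihood test, with TMM, filterByExpr and Benjamini-Hochberg adjustment, fitted over all genes or transcripts. Each cKO group (3) was compared with both control groups of its line (6), Het with Smad4flox/flox in a 3-group fit, and the mean of and the difference between the cKO effects over the 18 libraries. CPM is TMM-normalized over these 18. Single values had two-sided exact permutation tests on log2(CPM + 1), log2(TPM + 1) or percent, and orders used log2(TPM + 0.1). All p-values are two-sided and measure the spread between libraries. Transcripts with a mean share of at least 5% were tested. Named besides the members are, per list, genes with an adjusted p under 0.05 and the 2 with the smallest unadjusted p in the mean effect, and the 3 genes nearest to each member. DESeq2 1.42.0 was an alternative. The tests were tested on simulated data. The members and lists were chosen with earlier results of these data known. A library with conflicting labels was left out of all comparisons.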

Additional observations from a re-analysis of the deposited data

How the results depend on the processing

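Of 280 log2 fold changes of a member or member transcript under another setting, 268 kept direction and side of the threshold, 2 passed it (Ncam1 and Ncam1-205 in OMPCre cKO with DESeq2) and 10 changed sign; of 540 with 1 library left out, 495 kept both and 45 changed sign. None of the values that changed sign was called. St8sia2 in AP-2εCre cKO came to 0.049 with Het controls alone and 0.077 in the letter-and-number names alone, an alternative chosen after seeing the data, and St8sia4 there to -0.025 and -0.155. With Smad4flox/flox controls alone, St8sia2 and St8sia4 in OMPCre cKO came to 0.021 and 0.054. The difference between lines came to 0.0006 for Ncam1 with the replicate block, and for St8sia2 to 0.0007 with DESeq2 and 0.0036 with genes of at least 1 count in total; St8sia4-204 in AP-2εCre cKO came to 0.10 with the block.

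Genes called were 7 in AP-2εCre cKO (316 with DESeq2, 24 against Smad4flox/flox controls alone, 4 from length-scaled TPM, and 2 each with the replicate block, the kind of name as a covariate or the letter-and-number names alone), and 0 in OMPCre cKO (46 with DESeq2, 11 against Het controls alone, 2 with at least 10 counts in every library, 1 with the name covariate). Het against Smad4flox/flox gave 9 in the AP-2εCre line (125 with DESeq2, 14 with at least 1 count in total, 3 with the block, 5 with the name covariate) and 14 in the OMPCre line (158 with DESeq2, 7 with the block). The difference between lines gave 0 (20 with DESeq2) and the mean effect 18 (193 with DESeq2, 31 with the name covariate). Transcripts called were 0 in AP-2εCre cKO (1047 with DESeq2) and 2 in OMPCre cKO (827 with DESeq2, 0 with the block or the name covariate). Levels with p under 0.05 were 1 of 10 (2 in TPM, Ncam1 and Ncam2 in the AP-2εCre line), and isoform shares 1 of 18 (0 from TPM). Of 4 neighbouring pairs in the order of levels, 3 passed in the 6 Smad4flox/flox libraries and 4 over all 18. The cause of these changes was not tested.

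With 1 library left out, calls ranged from 2 to 8 and from 0 to 2 in the cKO comparisons of the AP-2εCre and OMPCre lines, from 3 to 21 and from 6 to 19 for Het, from 0 to 1 for the difference, from 8 to 33 for the mean effect, and from 0 to 8 and 0 to 19 for transcripts. The mean effect gave 33 without AP-2εCre Het replicate 1, 11 without AP-2εCre cKO replicate 3 and 8 without OMPCre cKO replicate 3, Het in the AP-2εCre line gave 21 without Het replicate 1, and OMPCre cKO gave 2 without Smad4flox/flox replicate 2. Levels with p under 0.05 were 1 to 2 (2 without AP-2εCre Het replicate 2 or cKO replicate 2) and shares 0 to 2 (0 without AP-2εCre Smad4flox/flox replicate 1 or 2 or cKO replicate 2 or 3). In the order of levels 0 pairs could pass, since 5 libraries cannot reach 0.05. Members whose sign changed ranged, in AP-2εCre cKO, from -0.29 to 0.12 (St8sia2) and -0.085 to 0.23 (St8sia4), and in OMPCre cKO from -0.21 to 0.022 (St8sia2) and -0.11 to 0.081 (St8sia4). For Het they ranged from -0.32 to 0.016 (Ncam1, AP-2εCre line), and in the OMPCre line from -0.092 to 0.015 (Ncam1), -0.024 to 0.41 (St8sia2), -0.059 to 0.32 (St8sia4) and -0.16 to 0.079 (L1cam). For the difference between lines they ranged from -0.16 to 0.19 (Ncam1), -0.20 to 0.21 (St8sia2), -0.041 to 0.26 (St8sia4) and -0.11 to 0.077 (L1cam), and for the mean effect from -0.19 to 0.016 (St8sia2) and -0.063 to 0.093 (St8sia4). Transcripts ranged, in AP-2εCre cKO, from -0.025 to 0.32 (Ncam1-204), -0.29 to 0.11 (St8sia2-201), -0.13 to 0.27 (St8sia4-201) and -0.41 to 0.27 (St8sia4-204), and in OMPCre cKO from -0.41 to 0.38 (Ncam1-202), -0.21 to 0.037 (St8sia2-201), -0.064 to 0.13 (L1cam-203) and -0.14 to 0.053 (St8sia4-201). The replicate block kept every other member on its side of the threshold. Same-numbered libraries of different genotypes had correlations of their deviations of -0.083 on average in the AP-2εCre line and 0.238 in the OMPCre line, with some below 0.1, so the numbers were not taken to pair animals.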

Other observations

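A further AP-2εCre-line library has the title of a heterozygote and the genotype label of a cKO, and it was put in no group. Scaled together with the 18 others, it held 294 CPM of Ncam1 (14755 counts), 44.4 CPM of Ncam2, 65.4 CPM of L1cam, 5.78 CPM of St8sia2 and 11.4 CPM of St8sia4. Its Ncam2 lay above, and its St8sia2 below, the 9 other libraries of that line, which ranged from 28.0 to 40.2 CPM for Ncam2 and from 6.45 to 11.8 CPM for St8sia2. Its Ncam1, L1cam and St8sia4 lay within the range of those libraries.

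The ratio of the long-tail Ncam1 transcript to both transcripts with the shorter tail ranged from 0.43 to 0.78 over the 18 libraries. It was 0.61, 0.78 and 0.78 in AP-2εCre cKO and 0.43 to 0.68 in the controls of that line, and 0.54 to 0.70 in OMPCre cKO and 0.53 to 0.69 in the controls of that line. The long form was thus the less abundant one by estimated counts in each library, and the highest ratios were those of replicates 2 and 3 of the AP-2εCre cKO, which also had the highest Ncam1 level.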
